A study of Mus musculus with 10 samples.

Results

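The genes described here encode the desmosome and adherens junction proteins plakoglobin (Jup), desmoplakin (Dsp), the plakophilins (Pkp1, Pkp2 and Pkp3), E-cadherin (Cdh1), N-cadherin (Cdh2), β-catenin (Ctnnb1), α-catenin (Ctnna1) and p120-catenin (Ctnnd1). They are 10 of the 36009 genes in the count file, and each was found by its gene name. They were chosen from a comparison of the same tumors, so their differences between responders and non-responders, and the calls they received in the fit over all genes, are a description and support nothing. RNA was sequenced from polyA libraries of 10 subcutaneous CT26 tumors, 6 from responders and 4 from non-responders, to ask which features of a tumor before treatment went with its later response. CT26 is a single mouse colorectal carcinoma line, grown here in female BALB/c mice labelled wild type. Per the study's methods the mice were young adults, and tumors were selected by response after follow-up.

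Each library came from the piece removed when the tumor was partly resected, and all 10 tumors were untreated at that time. A hydrogel loaded with poly(I:C), a synthetic double-stranded RNA, was then placed on the tumor left behind. Responders were mice whose tumors regressed completely, and non-responders were mice whose tumors grew with no delay. A piece of tumor holds cancer cells and host cells together. In such bulk samples, fewer cells of a type and less RNA per cell cannot be told apart.

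Adherens junctions and desmosomes hold neighboring cells together. In an adherens junction a classical cadherin spans the membrane, p120-catenin keeps it at the surface, and β-catenin with α-catenin links it to actin. In a desmosome the desmogleins and desmocollins take the place of the classical cadherins, while plakoglobin, plakophilins and desmoplakin link them to keratin filaments. Plakoglobin and β-catenin are close paralogs, and β-catenin is also the transcriptional effector of canonical Wnt signaling, which is often activated in colorectal cancer. Carcinoma cells that leave an epithelial state typically exchange E-cadherin for N-cadherin.

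Libraries totalled 29064924 to 38042366 rounded estimated counts in responders and 23374453 to 32986263 in non-responders. Of 16041 genes that passed a filter on low counts, 1293 (8.06%) had an adjusted p under 0.05 in edgeR's quasi-likelihood test, with 756 (4.71%) higher and 537 (3.35%) lower in responders. Responders and non-responders were fully separate for 1666 genes (10.4% of those tested), of which 730 (4.55%) were lower in every responder. Without non-responder 4, edgeR called 0 genes, with 4106 at an unadjusted p under 0.05. Counts called without 1 tumor ranged from 0 to 1897.

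Markers of other cell types moved with the groups. The summed level of 8 leukocyte markers was 1105 to 1762 CPM (reads of a gene relative to the scaled library total) in responders and 769 to 1067 CPM in non-responders. Of the same direction were 6 adipocyte markers, at 68.3 to 141 CPM against 20.9 to 45.8 CPM. The summed level of 9 skeletal muscle markers overlapped, at 624 to 1662 CPM against 454 to 650 CPM. Each of them had a higher estimate in responders, with log2 fold changes of 0.73 (Actn3) to 1.33 (Ckm). Acta1 and Mylpf were higher in every responder, and edgeR called Acta1, Myh1, Ckm and Des (edgeR adjusted p of 0.0329 to 0.0464). Sums also overlapped for the endothelial markers (98.7 to 157 CPM against 81.1 to 119 CPM) and the fibroblast markers (5717 to 6788 CPM against 4961 to 7942 CPM). Among the fibroblast markers, Fap (log2 fold change -0.78, edgeR adjusted p = 0.0207) and Pdgfrb (-0.58, edgeR adjusted p = 0.0266) were lower in every responder. The groups overlapped for the other fibroblast markers, with log2 fold changes of -0.21 to 0.07. The summed level of 10 skin keratinocyte markers was lower in every responder, at 54.0 to 91.7 CPM against 115 to 132 CPM. Most of that sum was Lgals7, a galectin of stratified epithelium, at 47.0 to 84.6 CPM against 100 to 126 CPM, and the groups overlapped for every other gene of the list. Trp63 (log2 fold change 1.24) and Krt10 (0.16) had estimates in the other direction. In no list was a gene at 0 in every tumor.

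The label of colorectal carcinoma was compared with 10 markers of simple and intestinal epithelium. Epcam reached at most 0.709 CPM in any tumor, Krt8 0.565 CPM, Vil1 0.149 CPM, Krt18 0.0936 CPM and Cdx1 0.0403 CPM. Krt20, a keratin of intestinal epithelium, stood at 12.7 to 37.6 CPM in responders and 32.5 to 75.3 CPM in non-responders, and Lgals4, an intestinal galectin, at 4.54 to 6.31 CPM over all tumors. Krt7, Krt19 and Cdx2, the other markers of the list, reached at most 1.34, 0.823 and 1.61 CPM. Only Krt20 and Lgals4 thus stood above these levels in every tumor.

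Sequences upstream of the start site are shown for Jup, the member that was called, for Ctnnb1, its paralog with a steady level, and for Dsp, its desmosomal partner. They are the 250 bases before the RefSeq start site on GRCm38.p6, read 5′ to 3′ on the strand of the gene, and 4 of the 10 members (Jup, Dsp, Ctnnb1 and Ctnnd1) had an entry. Capitals mark CCAAT boxes (CCAAT or ATTGG) and GC boxes (GGGCGG or CCGCCC), motifs of general promoter factors.
Jup, chr11:100397791-100398040, minus strand: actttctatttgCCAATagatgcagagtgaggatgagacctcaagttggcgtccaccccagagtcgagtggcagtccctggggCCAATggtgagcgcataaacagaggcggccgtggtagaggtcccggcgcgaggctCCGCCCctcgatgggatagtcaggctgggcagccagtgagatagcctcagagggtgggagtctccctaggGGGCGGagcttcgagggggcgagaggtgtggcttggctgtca
Ctnnb1, chr9:120933150-120933399, plus strand: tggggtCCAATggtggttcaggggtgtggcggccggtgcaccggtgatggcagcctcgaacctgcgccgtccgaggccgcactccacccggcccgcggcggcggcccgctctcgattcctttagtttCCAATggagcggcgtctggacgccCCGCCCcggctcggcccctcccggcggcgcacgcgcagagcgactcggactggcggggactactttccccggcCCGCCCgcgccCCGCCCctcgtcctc
Dsp, chr13:38151044-38151293, plus strand: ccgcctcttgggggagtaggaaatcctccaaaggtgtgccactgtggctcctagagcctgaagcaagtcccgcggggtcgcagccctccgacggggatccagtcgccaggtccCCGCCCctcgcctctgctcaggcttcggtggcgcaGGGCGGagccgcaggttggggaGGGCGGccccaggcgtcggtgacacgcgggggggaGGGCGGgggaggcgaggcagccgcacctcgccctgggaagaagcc

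The Jup and Ctnnb1 sequences shown each held 2 CCAAT boxes, and the Dsp sequence held 0. GC boxes numbered 2 in Jup, 3 in Ctnnb1 and 4 in Dsp, and 62.0%, 74.8% and 72.4% of the bases were G or C. The sequence before a second Ctnnb1 start site, not shown, held 0 CCAAT boxes and 2 GC boxes. Over all 32851 RefSeq sequences of the same length, 33.8% held a CCAAT box and 32.7% a GC box on either strand. Neither the E-box CACCTG (or CAGGTG), a motif of ZEB and SNAIL repressors found in 17.2% of the sequences, nor the TCF/LEF core CTTTG (or CAAAG), found in 48.6%, occurred upstream of Jup or of this Ctnnb1 start site, while the Dsp sequence held 1 TCF/LEF core and no such E-box. A match is a description of letters only.

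Jup (ENSMUSG00000001552; GRCm38 chr11:100368958-100397763, minus strand) was lower in every responder. Plakoglobin is the one catenin found in both kinds of junction. Its level was 25.5, 20.7, 22.1 and 24.0 CPM in non-responders 1 to 4, and in the 6 responders it ran from 14.8 through a median of 16.3 to 16.4 CPM. The lowest non-responder lay above the highest responder, and the responders lay close together, with a coefficient of variation of 4.85% against 9.09% in non-responders. Mean levels were 15.8 ± 0.769 CPM (SD, n = 6) and 23.1 ± 2.10 CPM (SD, n = 4), a log2 fold change (responder minus non-responder) of -0.54 with an SE of 0.0669. Non-responders thus stood 1.46-fold above responders. The counts behind these levels were 448 to 796 per tumor, and no other annotated gene shares exon sequence with Jup.

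The Jup estimate was -0.59 to -0.49 over the 10 fits that each left out 1 tumor, and Jup was called in 9 of them, the exception being the fit without non-responder 4 (-0.53). These fits use the contrast that chose Jup and describe how its estimate varied. The leukocyte and adipocyte markers, Acta1, Mylpf, Lgals7, Fap and Pdgfrb given above moved with the groups as well. Their part in the Jup difference was not tested. With the level of Ptprc (CD45, a surface phosphatase of leukocytes) as a covariate, the Jup estimate was -0.35 (SE 0.0800) and 0 of 16041 genes passed the threshold in edgeR, with 845 at an unadjusted p under 0.05. Ptprc itself stood at 326 to 499 CPM in responders and 181 to 307 CPM in non-responders, so this fit cannot separate Ptprc from response. With the skin keratinocyte markers as a covariate, Jup was called, at -0.58 (SE 0.063), and the Dsp estimate was -0.44. Without non-responder 2 these estimates were -0.59 and -0.23. The part of skin cells in the Jup difference was not tested.

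**Figure D1:**
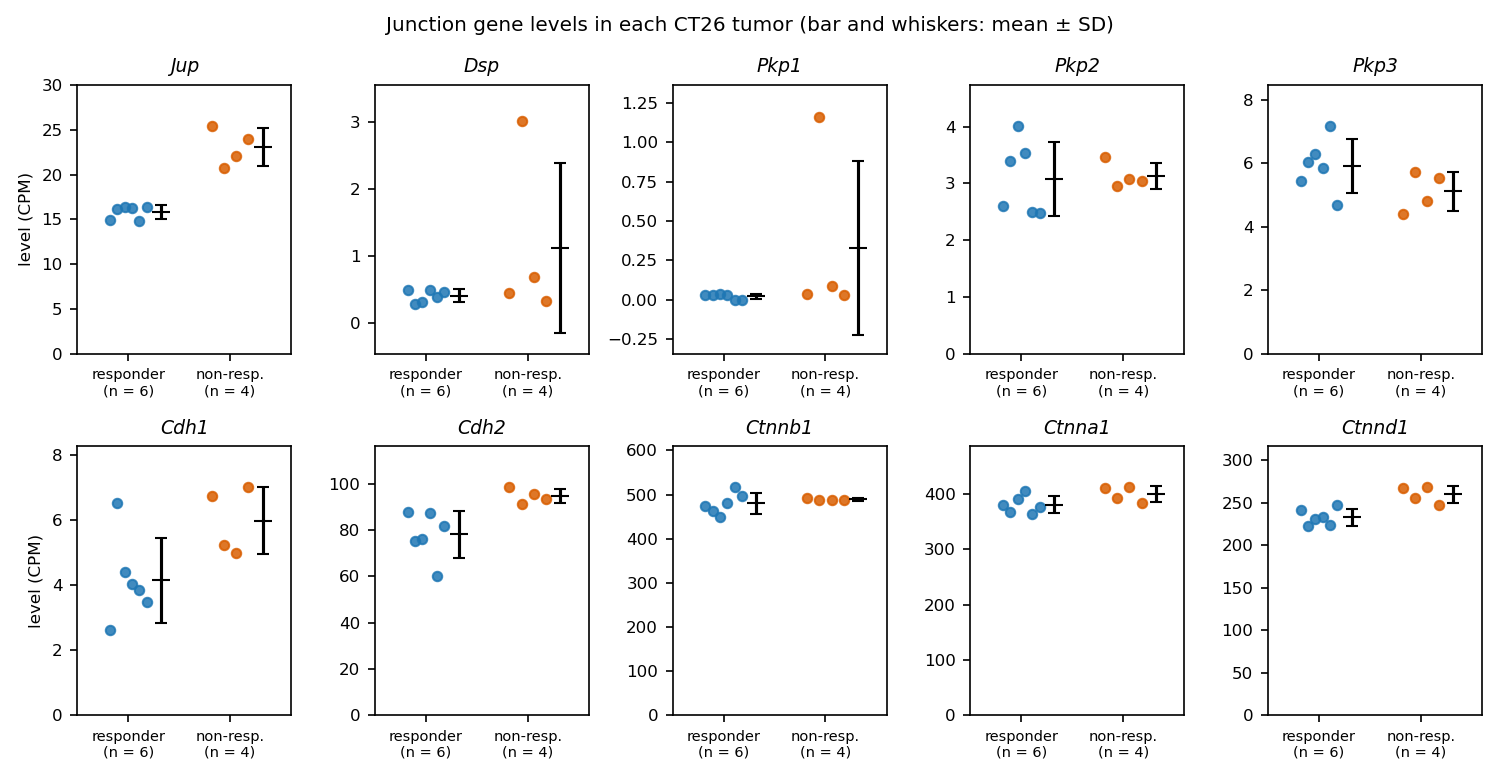
Level of each of the 10 junction genes in CPM (vertical axis, 1 scale per gene) in 6 responders (blue) and 4 non-responders (orange); points are tumors, and the bar with whiskers gives the mean ± SD. Jup responders all lie at or below 16.4 CPM and non-responders at or above 20.7 CPM, while Dsp and Pkp1 have a single high tumor, non-responder 2, whose spread carries the lower whisker below 0.

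Dsp (ENSMUSG00000054889; chr13:38151294-38198577, plus strand) was nearly absent from all tumors but one. Desmoplakin ties the desmosomal plaque to keratin filaments. Its level was 0.444, 3.02, 0.693 and 0.332 CPM in non-responders 1 to 4 and ran from 0.281 through a median of 0.431 to 0.499 CPM in responders. Non-responder 2 stood alone with 81 counts, and the other 9 tumors held 9 to 18. The log2 fold change of -1.45 (SE 0.560) rested on that tumor and was -0.23 (SE 0.305) without it. Dsp shares 499 exon bases with Gm10129 on the opposite strand.

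Pkp1 (ENSMUSG00000026413; chr1:135871395-135919207, minus strand) did not pass the filter on low counts and has no fitted fold change. Plakophilin 1 is a desmosomal plaque protein of stratified epithelium. It had 1, 31, 2 and 1 counts in non-responders 1 to 4, or 0.0403, 1.16, 0.0867 and 0.0301 CPM, and 0 or 1 count in each responder, where 3 counts correspond to 0.0782 to 0.103 CPM. Apart from non-responder 2, all tumors were below the level of 3 counts.

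Other desmosome and skin genes, named here after their values were seen, were also high in non-responder 2. Dsg3, a desmoglein of stratified epithelium, had 24 counts there and at most 2 elsewhere, Dsc1 21 against at most 2, Dsc3 19 against at most 1, and Perp, a desmosomal membrane protein, 57 against at most 9. The basal keratins Krt5 and Krt14 had 83 and 58 counts against at most 2 and 1. Of 13 other desmosome genes 7 had their highest CPM in this tumor, and of 10 skin keratinocyte markers 6 did. The skin markers Krt1 (0 counts there), Krt10, Trp63 (0.97 against up to 2.37 CPM) and Lgals7 (100 against up to 126 CPM) did not. The desmogleins Dsg1a, Dsg1b and Dsg1c are near-identical paralogs whose counts are uncertain. Dsg2 and Dsc2, the pair expressed in simple epithelium, were not highest there, with 35 and 18 counts against up to 59 and 27 elsewhere. The part of skin cells in the Dsp and Pkp1 values was not tested.

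**Figure D2:**
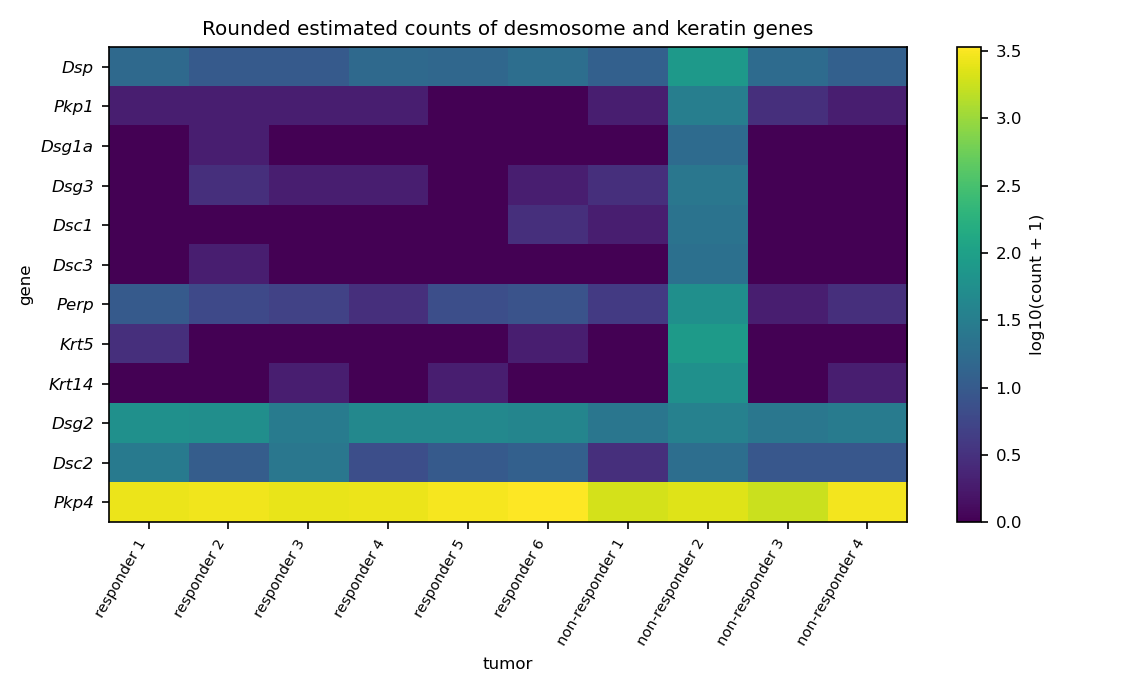
Rounded estimated counts on a log10(count + 1) color scale (bright is high) for 12 desmosome and keratin genes (rows) in the 10 tumors (columns). From Dsp to Krt14 the brightest cell of each row is non-responder 2, with 16 to 83 counts, whereas Dsg2, Dsc2 and Pkp4 do not peak there.

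Pkp2 and Pkp3 did not separate the groups. Plakophilin 2 (Pkp2, ENSMUSG00000041957; chr16:16213318-16272712, plus strand), the plakophilin of simple epithelium and heart, was at 3.47, 2.95, 3.08 and 3.05 CPM in non-responders and ran from 2.48 through a median of 3.0 to 4.02 CPM in responders. All 4 non-responders lay inside the responder range, and the log2 fold change was -0.03 (SE 0.162). Plakophilin 3 (Pkp3, ENSMUSG00000054065; chr7:141078218-141090510, plus strand), a broadly expressed plaque protein of epithelia, was at 4.40, 5.71, 4.81 and 5.55 CPM in non-responders and 4.69, 5.93 and 7.19 CPM at the lowest, median and highest responder. It was the single member with an estimate higher in responders (0.21, SE 0.127), and the groups overlapped. Over the fits without 1 tumor, the Pkp3 estimate stayed between 0.14 and 0.27, whereas that of Pkp2 ran from -0.11 to 0.03 and kept its sign in 6 of 10.

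Both classical cadherins had lower estimates in responders. E-cadherin (Cdh1, ENSMUSG00000000303; chr8:106603351-106670246, plus strand), the cadherin of epithelial adherens junctions, was at 6.74, 5.22, 4.98 and 7.02 CPM in non-responders and ran from 2.63 through a median of 3.94 to 6.52 CPM in responders. Responder 2, at 6.52 CPM, lay among the non-responders, and the other responders lay below all of them, at 4.40 CPM or less. The log2 fold change was -0.53 (SE 0.215), close in size to that of Jup but with a larger SE, on 79 to 233 counts per tumor. It ranged from -0.71 to -0.43 without 1 tumor, and it was -0.29 (SE 0.348) with the Ptprc covariate, whose part was not tested. Cdh1 was called in none of these fits.

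N-cadherin (Cdh2, ENSMUSG00000024304; chr18:16588877-16809246, minus strand), the classical cadherin of mesenchymal and neural cells, was at 98.7, 91.1, 95.7 and 93.7 CPM in non-responders and ran from 60.3 through a median of 79.0 to 88.1 CPM in responders. The groups did not overlap, and responder 5 was the lowest tumor. Means of 78.2 ± 10.3 CPM (SD, n = 6) and 94.8 ± 3.19 CPM (SD, n = 4) gave a log2 fold change of -0.28 (SE 0.0903). The estimate was -0.04 (SE 0.112) with Ptprc as a covariate. It was -0.02 (SE 0.0700) with the skeletal muscle markers as a covariate, an alternative added after seeing the data. Both covariates moved with the groups, so these fits cannot separate them from response. Their part in the Cdh2 difference was not tested.

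β-catenin did not separate the groups. Ctnnb1 (ENSMUSG00000006932; chr9:120929216-120960507, plus strand) was at 493, 487, 488 and 488 CPM in non-responders and ran from 449.9 through a median of 477 to 517 CPM in responders. All 4 non-responders lay inside the responder range, with a coefficient of variation of 0.541% against 5.01%. The log2 fold change was -0.03 (SE 0.0453), and it stayed between -0.05 and -0.01 without 1 tumor. Ctnnb1 shares exon sequence with Ulk4 on the opposite strand, which had 159 to 242 counts per tumor where Ctnnb1 had 11265 to 19061.

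α-catenin, which couples β-catenin or plakoglobin to actin, and p120-catenin, which holds cadherins at the membrane, were not called. Ctnna1 (ENSMUSG00000037815; chr18:35118859-35254779, plus strand) was at 411, 394, 413 and 384 CPM in non-responders and ran from 364 through a median of 378 to 406 CPM in responders, with overlap and a log2 fold change of -0.07 (SE 0.0442). It shares 95 exon bases with Lrrtm2 on the opposite strand, which had 337 to 1328 counts per tumor. Ctnnd1 (ENSMUSG00000034101; chr2:84600071-84650765, minus strand) was at 268, 256, 269 and 248 CPM in non-responders and ran from 222 through a median of 232 to 248 CPM in responders. Its groups did not overlap, but the highest responder (247.6 CPM) and the lowest non-responder (247.7 CPM) were next to each other. The log2 fold change of -0.16 (SE 0.0444) became -0.10 (SE 0.0670) with the Ptprc covariate, whose part was not tested. Ctnnd1 shares 4482 of its 7319 exon bases with Gm28635 on the same strand, which had 0 counts in every tumor.

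Of the 9 members tested, edgeR called 1, Jup, at an adjusted p under 0.05, beside 8.06% of all genes tested in either direction and 3.35% in the direction of lower. The groups did not overlap for 3 members (Jup, Cdh2 and Ctnnd1), each lower in responders, beside 4.55% of all genes. Estimates were lower in responders for 8 members and higher for 1, with a median log2 fold change of -0.16, beside -0.01 over all genes tested. Since the members were selected on this contrast, these counts describe them and are no evidence of a direction. The 9 signs were the same under RLE scaling, without the filter and with DESeq2, whereas 7 were kept with the Ptprc covariate, where Pkp2 (0.17) and Pkp3 (-0.12) turned.

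Levels of different genes were compared per kilobase of annotated exon. Ctnnb1 stood highest, at 93.2 ± 3.57 CPM per kb (SD, n = 10 tumors), followed by Ctnna1 (60.5 ± 2.69), Ctnnd1 (33.3 ± 2.30), Cdh2 (10.5 ± 1.45) and Jup (2.91 ± 0.618). Below them came Pkp3 (1.55 ± 0.229), Cdh1 (1.07 ± 0.325), Pkp2 (0.579 ± 0.0944), Dsp (0.0718 ± 0.0856) and Pkp1 (0.0288 ± 0.0709). The ranges of neighbors in this order overlapped for Pkp3 and Cdh1, Cdh1 and Pkp2, and Dsp and Pkp1, and were separate for the other pairs. Among the 16041 genes tested Ctnnb1 had rank 436 and Dsp rank 15722 by this measure, where rank 1 is the highest. The order was the same with the length of the longest transcript, although the Jup level rose from 2.91 to 5.85.

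**Figure D3:**
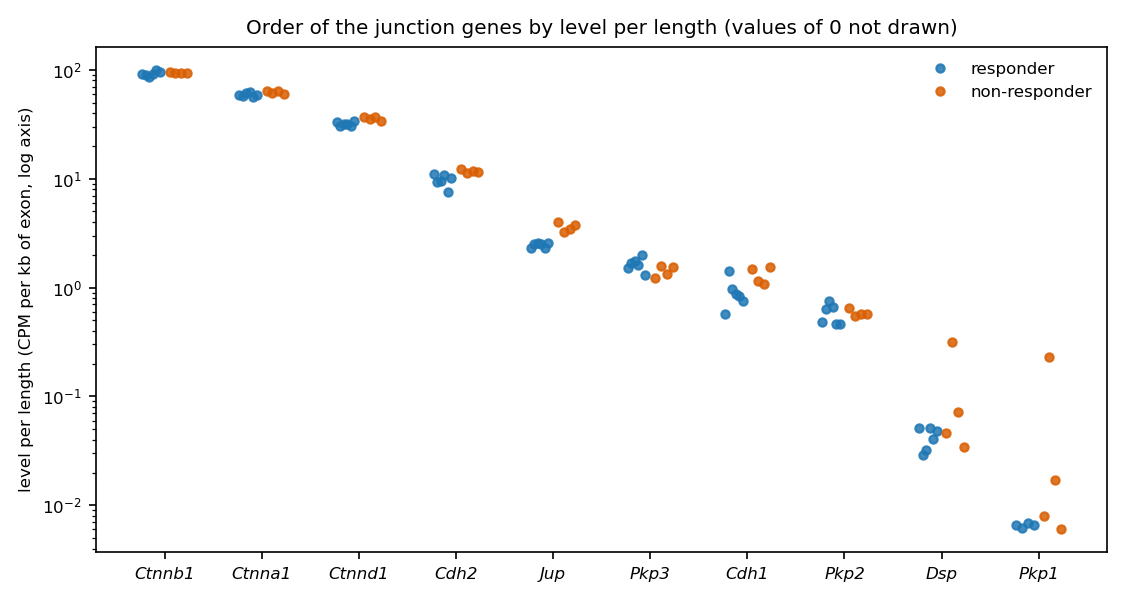
Level per length (CPM per kb of exon, log axis) of the 10 junction genes, ordered by mean over 10 tumors; points are responders (blue) and non-responders (orange), and the 2 Pkp1 values of 0 are not drawn. The catenins of the adherens junction lie near the top, at 30.4 to 99.6 CPM per kb, and Dsp and Pkp1 at 0.313 CPM per kb or less.

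Per length, N-cadherin RNA exceeded E-cadherin RNA in all 10 tumors. The ratio of Cdh2 to Cdh1 was 11.7 ± 4.35 in responders (SD, n = 6; 6.54 to 19) and 9.17 ± 1.51 in non-responders (SD, n = 4; 7.57 to 10.9), so the groups overlapped. Their summed level was 10.6 ± 1.22 CPM per kb in responders and 13.1 ± 0.525 in non-responders. Responder 1 had the highest ratio and responder 2 the lowest. With the longest transcript as length, the mean levels were 17.5 CPM per kb for Cdh2 and 1.10 for Cdh1, which raises the ratio by the same factor in every tumor.

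Plakoglobin made up a small share of the RNA of the paralog pair. Jup was 2.60% ± 0.212 of the summed Jup and Ctnnb1 level per length in responders (SD, n = 6; 2.26% to 2.86%) and 3.67% ± 0.306 in non-responders (SD, n = 4; 3.32% to 4.01%). The groups did not overlap, as for Jup itself. With the longest transcript as length, the mean levels were 5.85 CPM per kb for Jup and 133.5 for Ctnnb1, which gives Jup a larger share in every tumor. The ratio of Ctnna1 to Ctnnb1 overlapped, at 0.643 ± 0.0483 and 0.662 ± 0.0214, as did that of Ctnnd1 to Ctnnb1 (0.345 ± 0.0209 and 0.378 ± 0.0135). The ratio of Jup to Dsp ran from 10.3 in non-responder 2 to 109 in non-responder 4, and was 44.8 to 86.7 in responders.

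**Figure D4:**
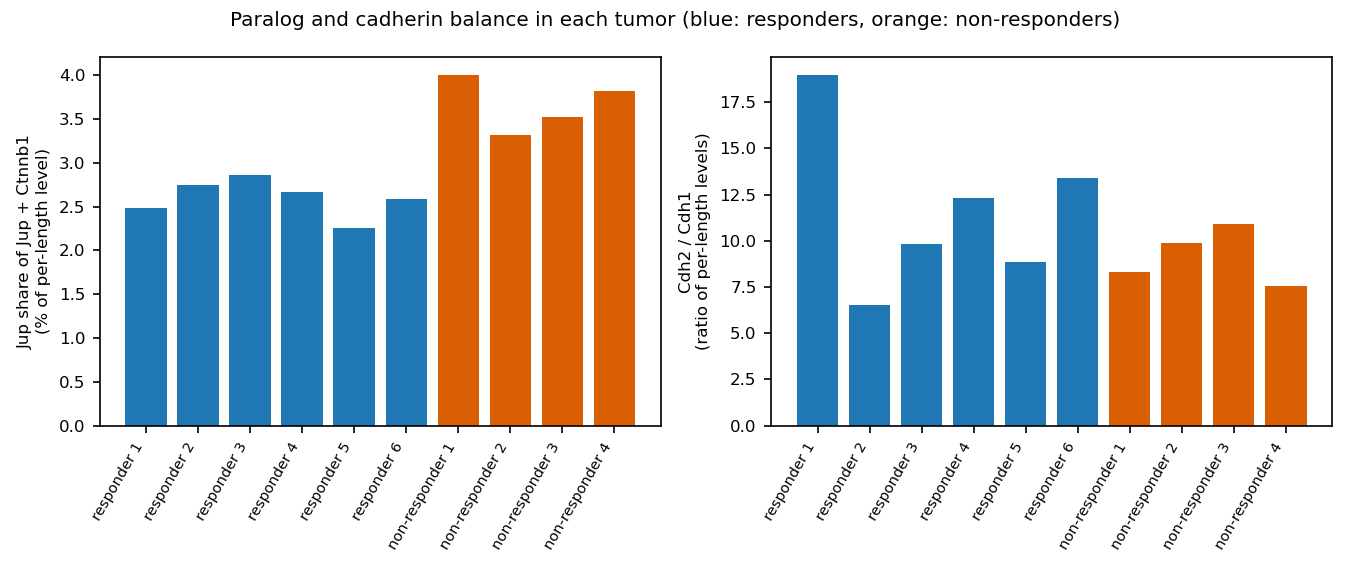
Bars give, for each tumor, the share of Jup in the summed per-length level of Jup and Ctnnb1 (left, %) and the ratio of Cdh2 to Cdh1 per length (right), in responders (blue) and non-responders (orange). The Jup share is 2.26% to 2.86% in responders and 3.32% to 4.01% in non-responders, whereas the cadherin ratio overlaps, from 6.54 to 19.

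Single tumors ranked differently from gene to gene. Responder 5 was the lowest of the 10 tumors for Jup, Cdh2 and Ctnna1 and the highest for Pkp3 and Ctnnb1. Non-responder 1 was the highest for Jup and Cdh2 and the lowest for Pkp3. Responder 5 also had the highest sums of leukocyte, skeletal muscle, adipocyte and endothelial markers, and non-responder 1 the lowest of each. The sums of skin and of simple epithelial markers were lowest in responder 5. The part of these cells in the ranks was not tested. Correlations were computed for 2 pairs within the 6 responders, since the groups separate for Jup and Cdh2, and neither passed. For Jup and Ctnnb1, Pearson's r was -0.50 (exact permutation p = 0.317, adjusted p = 0.504) and Spearman's rho -0.49 (exact permutation p = 0.356, adjusted p = 0.356), and r was 0.11 (exact permutation p = 0.792) without responders 1 and 5. For Cdh1 and Cdh2, r was -0.33 (exact permutation p = 0.504, adjusted p = 0.504) and rho -0.54 (exact permutation p = 0.297, adjusted p = 0.356), and r was -0.03 (exact permutation p = 0.958) without responders 1 and 2.

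The genes most like Jup within groups, by Pearson's r of log2 CPM over 10 tumors after the group means were subtracted, were Syn1 (0.970), Limk1 (0.955) and Dusp9 (0.954) among 13731 genes with at least 1 CPM. For Cdh1 they were Ap2s1 (0.971), F8a (0.970) and Dohh (0.970). These values describe 10 libraries that share their scaling, and the highest of many values is high by selection.

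Other desmosome genes showed no call. Of 13 (desmogleins, desmocollins, Pkp4, Ppl, Evpl and Perp) 5 passed the filter, and edgeR called 0, with 0 at an unadjusted p under 0.05 and 0 called by DESeq2. Over all 16041 genes tested, 4666 had an unadjusted p under 0.05 in edgeR, and DESeq2 called 2573 of 15416. This background holds for the lists below as well. Pkp4, a plakophilin relative that also binds classical cadherins, was the highest of them, with responders at 88.0 ± 1.80 CPM (SD, n = 6) and non-responders at 82.5 ± 5.13 CPM (SD, n = 4; log2 fold change 0.09, SE 0.0429, edgeR adjusted p = 0.177). Estimates were higher for 3 and lower for 2, with a median log2 fold change of 0.09.

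Of 17 other adherens junction genes 14 were tested and edgeR called 0. An unadjusted p under 0.05 was found for 2, beside 4666 of all 16041 genes, and DESeq2 called 1, beside 2573 of 15416. Nectin4, an adhesion protein of adherens junctions, was higher in every responder (9.49 ± 1.59 against 6.52 ± 1.37 CPM). It missed the threshold (log2 fold change 0.54, SE 0.161, edgeR adjusted p = 0.0597). Vcl (vinculin, which reinforces the actin link of α-catenin) was at 229.9 ± 14.9 and 259 ± 32.8 CPM (log2 fold change -0.17, edgeR adjusted p = 0.177). Of 19 tight junction genes 14 were tested and edgeR called 0, with 3 at an unadjusted p under 0.05 and 0 by DESeq2. Tjp1, the scaffold ZO-1, was at 145 ± 11.9 and 163 ± 10.5 CPM (log2 fold change -0.16, edgeR adjusted p = 0.139). Median log2 fold changes were 0.06 and 0.10 for these lists.

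Among 17 genes of β-catenin turnover and its nuclear partners, all tested, edgeR called 1 higher and 0 lower in responders. It was Tcf7l2, the main TCF factor through which β-catenin acts in the intestine. Its level was 24.7, 29.8, 28.6 and 28.7 CPM in non-responders and 36.5 to 43.6 CPM in responders, with no overlap (log2 fold change 0.50, SE 0.0713, edgeR adjusted p = 0.0194). It passed in 8 of 10 fits without 1 tumor, and missed without non-responder 1 and without non-responder 4, with an adjusted p of up to 0.0582. The highest gene of the list was Csnk1a1, a kinase that primes β-catenin for degradation (257.6 and 255 CPM, log2 fold change 0.02, edgeR adjusted p = 0.816). Of 11 Wnt target genes 7 were tested and edgeR called 0, with 0 at an unadjusted p under 0.05 and 0 by DESeq2. Ccnd1, which encodes cyclin D1, was the highest, at 979 ± 44.0 and 925 ± 35.1 CPM (log2 fold change 0.08, edgeR adjusted p = 0.292).

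Of 10 regulators of cadherin genes 7 were tested, and edgeR called 1 lower and 0 higher in responders. It was Zeb1, a repressor of Cdh1, at 88.9, 81.0, 86.5 and 71.1 CPM in non-responders and 61.8 to 73.1 CPM in responders (log2 fold change -0.25, SE 0.0673, edgeR adjusted p = 0.0467). Non-responder 4 lay inside the responder range, and the call was lost in all 10 fits without 1 tumor, with an adjusted p of up to 0.131. Zeb2, the highest of the list, was at 207 and 195 CPM (log2 fold change 0.09, edgeR adjusted p = 0.249). Estimates were higher for 5 and lower for 2 of these genes, with a median of 0.15.

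**Figure D5:**
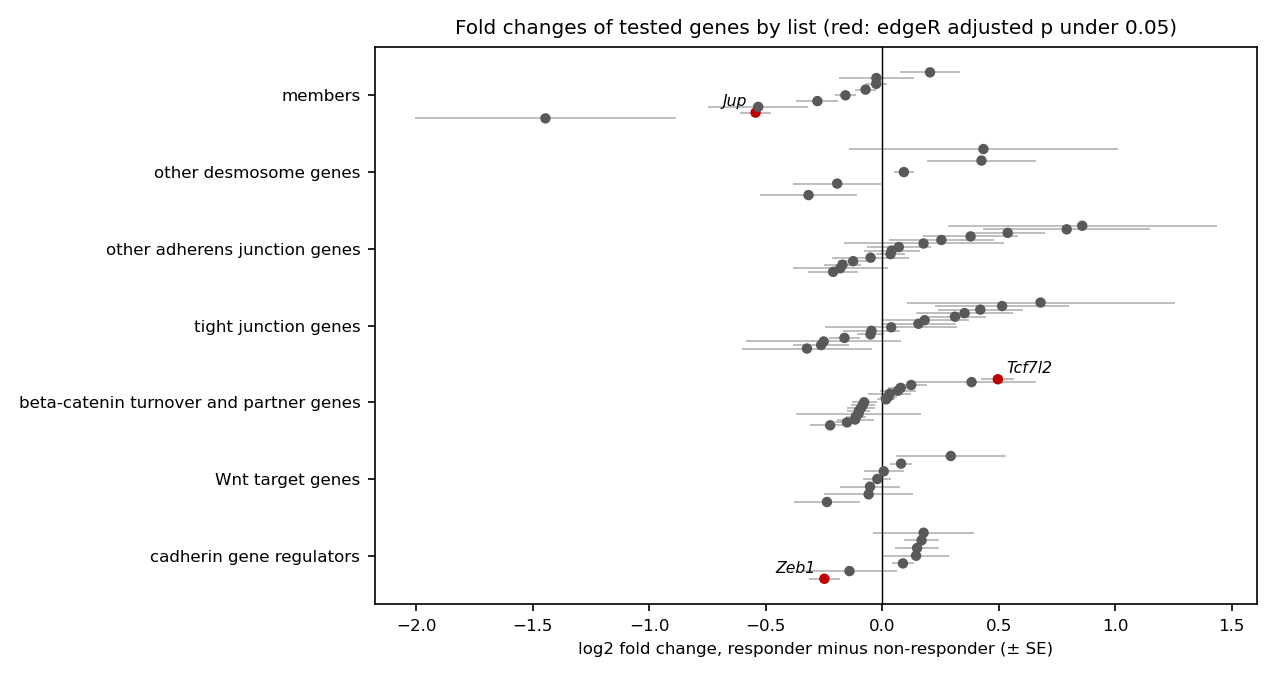
Log2 fold change (responder minus non-responder, horizontal axis) with its SE for every tested gene of the members and of the 6 lists of related genes; red points have an edgeR adjusted p under 0.05. The red points are Jup (-0.54), Tcf7l2 (0.50) and Zeb1 (-0.25), and the member furthest to the left, Dsp (-1.45), has the widest error.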

How the data were processed

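RNA was measured in 10 CT26 tumors (6 responders, 4 non-responders), grouped by the response in the labels and numbered in accession order, which pairs no tumors. Each tumor came from its own mouse, and the labels name no batch. The authors checked reads with FastQC, quantified transcripts with Kallisto against mm10 (GRCm38) and brought them to gene level through tximport. What the authors deposited are expected counts, that is, estimated counts (45.1% of them fractional), for 36009 genes, of which 9633 had no gene name and stayed in the fits under their identifier. The annotation release, the tximport scaling and the strand setting are not given in the sources used here. Without strand, reads of overlapping genes on opposite strands cannot be told apart, and counts of near-identical paralogs are uncertain.

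After rounding, counts went into edgeR 4.0.16 (R 4.3.3). The filter filterByExpr (minimum count 10, minimum total 15) retained 16041 genes, and the rows it dropped held no more than 0.0716% of any library. With TMM scaling, the 2 response groups were compared by the two-sided quasi-likelihood test with Benjamini-Hochberg adjustment over all genes tested and a threshold of 0.05. A prior count of 2 was added for log2 CPM, each SE was the absolute log2 fold change over the root of its F statistic, and the fit was tested on simulated data. Correlations used an exact two-sided permutation test. With counts of this depth, precision was limited by the spread between 6 and 4 tumors. For Dsp and Pkp1 counts were also few, and 1 tumor stood apart. Exon lengths and positions came from GENCODE M21 and upstream sequences from RefSeq. A fitted log2 fold change of a gene with few counts is imprecise, as for Dsp. Its SE was 0.560 with non-responder 2, the tumor that stood apart, and 0.305 without it.

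The members, the lists of related genes and the cell type markers were chosen with earlier results of these data known. All 10 members are named. Of each list, every gene called is named, with the highest gene and the gene of smallest p where none was called, along with 3 genes most like Jup and like Cdh1. Highest genes of other lists and genes high in non-responder 2 were named after their values were seen. Alternatives were RLE scaling, no filter, DESeq2 1.42.0, an adjusted p under 0.1, covariates for Ptprc, skin and skeletal muscle markers, the longest transcript as length, and leaving out each tumor.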

Additional observations from a re-analysis of the deposited data

Results flagged for a closer look

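In non-responder 2, Dsp stood at 3.02 CPM, far from the other 3 non-responders (0.332 to 0.693 CPM), with a gap to its nearest neighbor of 0.866 of the group's whole range. In the same tumor Pkp1 stood at 1.16 CPM, against 0.0301 to 0.0867 CPM in the other non-responders, with a gap of 0.950 of the range. Both exceeded Dixon's critical value for 4 samples. Of 34 groups of values examined 2 were this far apart, and chance gives about 1 in 20, or 1.7 groups. The 2 are not independent, since they come from 1 tumor.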

How the results depend on the processing

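Under RLE scaling 1287 genes were called and without the filter 931, beside 1293, and the 9 member estimates kept their sign in both. DESeq2 called 2573 genes, 3 members (Jup, Cdh2 and Ctnnd1) and 1 other adherens junction gene. An adjusted p under 0.1 gave 2994 genes, 3 members, 1 other adherens junction gene and 2 genes of the β-catenin list. With the skin keratinocyte covariate 2360 genes, 2 members (Jup and Ctnnd1), 1 other adherens junction gene and 2 genes of the β-catenin list were called, and the Dsp estimate moved to -0.44. The Ptprc covariate gave 0 genes (845 at an unadjusted p under 0.05 in edgeR), 0 members, 0 genes of the β-catenin list and 0 cadherin regulators, and the skeletal muscle covariate, chosen after seeing the data, gave 0 in each as well (910 unadjusted, with Jup at -0.48). Without the filter 0 cadherin regulators were called. Leaving out 1 tumor gave 0 to 1897 genes, 0 to 1 members, 0 to 1 other adherens junction genes, 0 to 2 genes of the β-catenin list and 0 to 0 cadherin regulators. The count of genes fell below 1293 by over 1.5 times without responder 1 (553), 2 (244), 3 (17), 5 (412) or 6 (735) and without non-responder 1 (16), 3 (366) or 4 (0). The cause was not tested. No call changed for other desmosome, tight junction or Wnt target genes, nor for the 2 correlations. The size of r did vary without 1 responder, from -0.725 to -0.012 for Jup and Ctnnb1. For Cdh1 and Cdh2 it ran from -0.789 to -0.031. No paired analysis was possible because the tumors are numbered in accession order and the labels give no number shared between groups. The counts of Dsp and Pkp1 were too few to show a modest difference.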
